A study of Mus musculus with 2 samples.

Results

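The cells described here are those that the tricycle method placed after the arcs of DNA replication, in the arc of the cell cycle where RNA content is near its maximum. They were selected on their deposited cell cycle position, from 1π to under 1.125π rad (3.142 to 3.534 rad), and number 1268 of the 12805 cells, or 9.90%. Culture 1 held 704 of them among 5748 cells (12.2%, exact binomial 95% interval 11.4 to 13.1%) and culture 2 held 564 among 7057 (7.99%, 7.37 to 8.65%). They are called the G2 arc below. The preceding arc runs from 0.75π to 1π (2.356 to 3.142 rad) and holds 992 cells in culture 1 and 546 in culture 2, and the following arc runs from 1.125π to 1.25π (3.534 to 3.927 rad) and holds 360 and 556 cells.

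The study compared cell cycle positions within a cycling population and not treatments. Both samples were wild-type neurospheres, which are free-floating spheres of neural stem and progenitor cells, grown from the dorsal telencephalon of C57BL/6 mice at embryonic day 14.5 in medium with B27, N2, 10 ng/ml EGF and 10 ng/ml bFGF. Single cells were sequenced on the Chromium 3′ platform, and the labels do not say whether the cultures came from different embryos. Spheres of this kind had been kept under growth factors that hold cells in proliferation, so they model cycling progenitors and not the layered cortex.

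In G2 a cell has copied its genome and prepares to divide. The kinase Cdk1 gains its partner cyclin B, condensin and topoisomerase II begin to reshape the chromosomes, centromeres take up their kinetochore proteins, and motors and microtubule-binding proteins of the spindle accumulate. Many of the genes involved share a pair of promoter elements, the CCAAT box and the cell cycle genes homology region (CHR), through which they are kept low in G1 and released in G2 and M. Genes of DNA replication follow an earlier programme that is tied to entry into S phase.

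The position of each cell was computed by the authors from the expression of cell cycle genes in the same cells. Levels and differences of genes between arcs are therefore given as descriptions with no test. The 2 cultures are the only replicates and share 1 condition, and with 2 pairs the smallest two-sided permutation p is 0.5. A difference was called where it reached 0.25 on the scale of mean log2(value + 1) in the same direction in both cultures. Deposited values were already scaled for the depth of each cell, and the value of a single read differs between genes and between cultures, so levels are compared between arcs within a culture and not between genes or cultures. Total UMIs, the number of RNA molecules counted per cell, are not a term of the position, which by the methods was computed from values scaled for depth.

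The sequences that follow show what lies just upstream of genes on which the results turn. For each gene the 120 bases before the RefSeq start are given 5′ to 3′ on the strand of the gene (build GRCm38.p6), with the CHR core (TTTGAA or TTCGAA on either strand, so TTCAAA where it is reversed) and the CCAAT box (CCAAT, or ATTGG where it is reversed) in capitals. *Hmgb2*, *Cdk1* and *Mki67* are markers of the G2 arc, *Cdc20*, *Ube2c* and *Ccnb1* are among the genes with the largest differences from the preceding arc, and *Pcna* is a replication gene shown for contrast.
Hmgb2 (chr8:57511723-57511842, + strand): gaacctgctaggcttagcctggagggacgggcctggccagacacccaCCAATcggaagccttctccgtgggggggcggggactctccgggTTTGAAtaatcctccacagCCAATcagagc
Cdk1 (chr10:69352913-69353032, - strand): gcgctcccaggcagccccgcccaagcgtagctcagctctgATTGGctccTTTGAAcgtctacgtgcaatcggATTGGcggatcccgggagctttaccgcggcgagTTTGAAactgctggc
Mki67 (chr7:135716380-135716499, - strand): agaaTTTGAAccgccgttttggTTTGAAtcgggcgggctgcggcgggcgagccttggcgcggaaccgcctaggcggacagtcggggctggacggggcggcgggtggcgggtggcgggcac
Cdc20 (chr4:118437344-118437463, - strand): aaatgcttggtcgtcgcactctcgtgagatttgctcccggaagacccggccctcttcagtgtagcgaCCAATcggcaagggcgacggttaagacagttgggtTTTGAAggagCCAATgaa
Ube2c (chr2:164769809-164769928, + strand): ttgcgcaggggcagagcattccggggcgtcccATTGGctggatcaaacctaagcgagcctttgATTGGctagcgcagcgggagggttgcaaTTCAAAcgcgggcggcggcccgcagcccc
Ccnb1 (chr13:100786487-100786606, - strand): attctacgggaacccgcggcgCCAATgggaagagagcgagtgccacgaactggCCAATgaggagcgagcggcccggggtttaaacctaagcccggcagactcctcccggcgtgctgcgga
Pcna (chr2:132253181-132253300, - strand): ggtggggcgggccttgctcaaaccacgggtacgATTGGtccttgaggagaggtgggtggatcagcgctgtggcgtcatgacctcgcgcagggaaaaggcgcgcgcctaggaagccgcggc

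The stretch of *Hmgb2* holds a CHR core that begins 30 bases before the start, downstream of a CCAAT box that begins 73 bases before it. *Cdc20* has the same order, with the core at 18 bases and a CCAAT box at 53, and *Ube2c* carries both elements reversed, with the core at 29 bases. *Cdk1* has 2 cores, at 71 and 15 bases, and *Mki67* has 2, at 116 and 98. *Ccnb1* shows 2 CCAAT boxes without these core letters, and *Pcna* shows a single reversed CCAAT box. *Smc4*, the other marker, had no entry among the promoter sequences.

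The same letters were searched in RefSeq windows from 250 bases before to 50 after the start of every gene with an entry. A CHR core was found in 21.7% of all 27025 genes with a window and in 16.1% of the 8318 such genes of the expression table. It was found in 31 of the 51 genes with a window (60.8%) among the 62 genes that reached their maximum in the G2 arc, and in 43 of 65 (66.2%) among those higher there than in the preceding arc. Among genes lower in the G2 arc than in the preceding arc, the core was found in 6 of 30 (20%). Both elements together were found in 39 of the 65 higher genes (60%), in 4 of the 30 lower genes (13.3%) and in 6.94% of the genes of the expression table. The CCAAT box alone separated the sets less, with 87.7% of the higher genes, 66.7% of the lower genes and 43.4% of the table. A match of so few letters is a description of the window and not a site, and these gene sets were chosen by expression in the same cells.

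The RNA content of the G2 arc came close to its label. Median total UMIs per cell were 22833 in culture 1, with quartiles of 16773 and 29451, and 18644 in culture 2, with quartiles of 15296 and 22004. The medians over all cells of the cultures were 19477 and 14637, so the G2 arc lay 0.23 and 0.35 above its own culture on the log2 scale. Of 16 arcs of equal width, the G2 arc had the highest median in culture 2 and the second highest in culture 1, where the arc from 0.875π to 1π reached 23304. The maximum therefore fell within the G2 arc in one culture and just before it in the other.

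Against the whole preceding arc, the 2 cultures differed in direction. Culture 1 had a median of 22967 UMIs in the preceding arc, which put the G2 arc 0.0084 lower on the log2 scale (medians 14.49 and 14.48). Culture 2 had 17148 in the preceding arc, which put the G2 arc 0.12 higher, or 8.72%. Both differences were far smaller than the standard deviation of log2 UMIs among cells of the G2 arc, which was 0.57 and 0.47. That value describes the spread of single cells and not the uncertainty of a median, and the differences from the following arc, given next, were below it too.

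Against the following arc the direction was shared. The following arc had medians of 17831 and 15422 UMIs, and the G2 arc was 0.36 higher in culture 1 (1.28-fold) and 0.27 higher in culture 2 (1.21-fold). In steps of 0.0625π, the median stayed at 22843 and 22382 through the earlier and later parts of the G2 arc in culture 1, and at 18395 and 18704 in culture 2. It then stood at 18927 and 17811 in the next step and at 14076 and 11858 in the one after, from 1.1875π to 1.25π. In culture 1 the last 50 cells inside the G2 arc already had a median of 20157 UMIs and the first 50 outside it 20375, whereas in culture 2 these medians were 19371 and 18920.

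**Figure D1:**
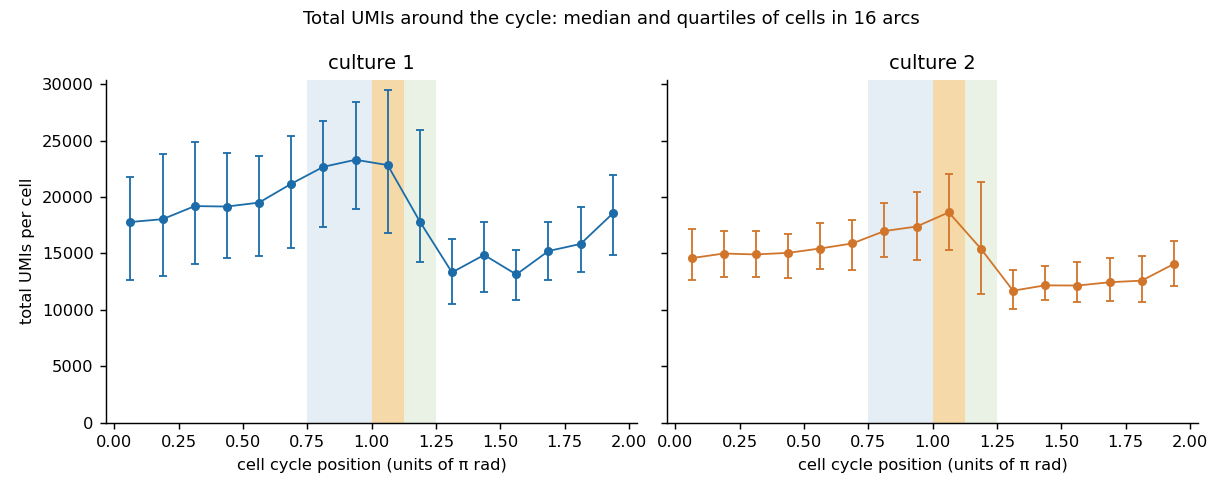
Median total UMIs per cell (points) with quartiles (bars) in 16 arcs of the cycle, against position in units of π rad, for each culture. Orange shading marks the G2 arc, blue the preceding arc and green the following arc. The G2 arc holds the highest median in culture 2 (18644) and the second highest in culture 1 (22833), and the lowest medians near it lie from 1.25π to 1.375π.

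The number of genes detected per cell followed the UMIs. The median was 3726.5 genes in the G2 arc of culture 1, beside 3836.5 before and 3376 after it. In culture 2 it was 3281, beside 3181 and 2940. When only cells between the UMI quartiles of the G2 arc were kept, so that depth was similar in all 3 arcs, the medians were 3859, 3726.5 and 3631 genes in culture 1 and 3248, 3281 and 3298 in culture 2. The difference from the following arc became smaller in culture 1 and changed sign in culture 2.

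The 4 genes given as markers all stood at their highest of the 16 arcs in the G2 arc in both cultures. Position was computed from cell cycle genes of the same cells, so these maxima describe the arc and do not test it. *Hmgb2*, which encodes a chromatin protein that bends DNA (chr8:57511907-57515999), had a mean log2(value + 1) of 4.15 in the preceding arc, 4.64 in the G2 arc and 4.54 in the following arc of culture 1, and of 4.14, 4.66 and 4.45 in culture 2. It was detected in all 704 and all 564 cells of the G2 arc. Its range over the 16 arcs, 3.83 and 3.72, was the widest of the genes that peaked there.

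*Mki67*, which encodes the Ki-67 protein that coats mitotic chromosomes (chr7:135689784-135716361), averaged 1.61, 1.99 and 1.77 in the 3 arcs of culture 1 and 1.77, 2.18 and 1.87 in culture 2. *Cdk1*, the kinase that starts mitosis (chr10:69335146-69352938), averaged 2.05, 2.50 and 2.26 in culture 1 and 1.79, 2.33 and 2.05 in culture 2. *Smc4*, a core subunit of condensin (chr3:69004738-69034623), averaged 2.08, 2.47 and 2.19 in culture 1 and 2.05, 2.43 and 2.15 in culture 2. All 3 genes formed a peak whose middle value is the highest in both cultures, and *Smc4* alone of them passed the threshold against both neighbours. The preceding arc is wider than the G2 arc. In its nearer part, from 0.875π to 1π, *Mki67* averaged 1.86 and 2.04, *Cdk1* 2.25 and 1.96 and *Smc4* 2.20 and 2.21. Against that part, none of the 3 genes was higher in the G2 arc by the threshold in both cultures. Among cells between the UMI quartiles of the G2 arc, *Smc4* differed from the following arc by 0.24 in culture 1 and -0.039 in culture 2 and *Cdk1* by 0.033 and -0.032, so the call of *Smc4* was lost and neither gene was above the following arc in culture 2. *Mki67* (0.23 and 0.21) and *Hmgb2* (0.16 and 0.15) were still above it in both.

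*Mki67* was detected in 94.5% of G2 arc cells in culture 1 and 93.1% in culture 2, at median depths of 22833 and 18644 UMIs. In the last arc of the cycle, from 1.875π to 2π, it was detected in 7.65% of 1700 cells and 4.88% of 2889 cells, at median depths of 18550 and 14070 UMIs. *Cdk1* was detected in 96.4% and 91.8% of G2 arc cells against 19.2% and 11.8% in that last arc. Free RNA in droplets can give reads of a gene in cells that do not express it. It was not measured here, and cells of the last arc may also express these genes at a low level. The shares in that arc are therefore a reference and not a measured background.

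**Figure D2:**
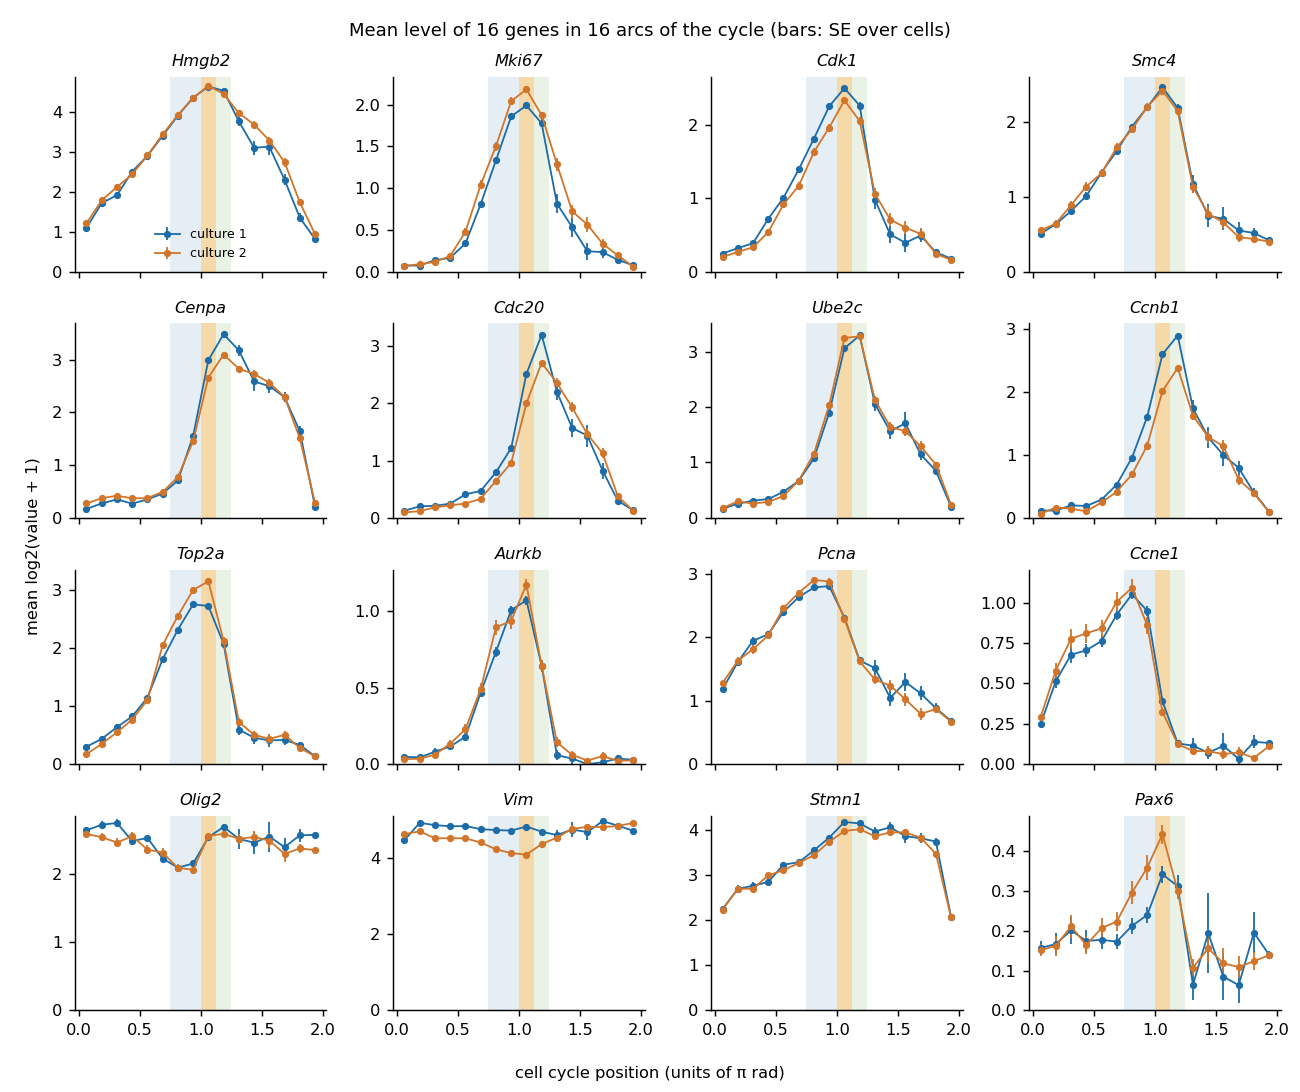
Mean log2(value + 1) of 16 genes (one panel each, culture 1 blue, culture 2 orange, bars are standard errors over cells) in 16 arcs, against position in units of π rad; orange shading marks the G2 arc, blue the preceding arc and green the following arc. *Hmgb2*, *Mki67*, *Cdk1* and *Smc4* peak in the G2 arc, *Cenpa*, *Cdc20*, *Ube2c* and *Ccnb1* are higher still in the following arc, *Pcna* and *Ccne1* are past their maximum, and *Olig2* leaves a low point that precedes the arc.

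The bounds cut a continuous course. The 50 cells just below the lower bound had a mean *Cdk1* level of 2.40 in culture 1 and 2.06 in culture 2, and the 50 just above it had 2.25 and 1.99. At the upper bound, the 50 cells inside had *Cdk1* at 2.58 and 2.34 and the 50 outside at 2.79 and 2.70. *Hmgb2* stood at 4.61 inside and 4.69 outside the upper bound in culture 1, and at 4.67 on both sides in culture 2. *Cdk1* was thus higher outside the upper bound in both cultures, while *Hmgb2* was nearly level across it.

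Most cells were staged G2M by both methods that stage every cell. Seurat called 97.9% of the G2 arc cells of culture 1 G2M (96.5 to 98.8%) and 98.6% of those of culture 2 (97.2 to 99.4%), and the rest S. Cyclone called 84.7% and 86.0% G2M, and 12.4% and 12.6% G1. The following arc had similar shares of G2M, at 99.4% and 99.6% by Seurat and 81.4% and 81.7% by cyclone, while the preceding arc had 39.8% and 35.7% and 23.3% and 25.3%, so these calls separate the G2 arc from the arc before it and not from the arc after it. The SchwabeCC stages left 55.5% and 53.9% of the cells without a stage, and gave G2 to 17.2% and 24.8%, G2.M to 16.9% and 10.8%, and M.G1 to 9.23% and 6.21%. These methods read expression of the same cells, so they are not independent of the position.

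The cells staged M.G1 within the G2 arc differed from those staged G2. The 65 such cells of culture 1 had a median of 18405 UMIs against 24483 in the 121 cells staged G2, and the 35 of culture 2 had 14350 against 18775 in 140 cells. Their *Top2a* averaged 1.55 against 3.24 in culture 1 and 1.26 against 3.58 in culture 2, and their *Aurkb* 0.46 against 1.46 and 0.54 against 1.46. *Cenpa*, by contrast, was higher in them, at 3.06 against 2.68 and 2.78 against 2.49. It was higher still in the cells staged G2.M, at 3.36 and 2.94, and stood at 2.97 and 2.73 in the cells without a stage. Within the arc, the cells staged M.G1 thus combined fewer UMIs and less *Top2a* with more *Cenpa* than the cells staged G2. They did not have more *Cenpa* than those staged G2.M. Compared with the cells staged G2, their *Cdc20* was also higher (2.55 against 2.13 and 2.27 against 1.87). Their *Ube2c* was lower (2.53 against 3.08 and 2.84 against 3.47), and *Ccnb1* was nearly level (2.40 against 2.39 and 1.96 against 1.95). *Hmgb2*, *Mki67*, *Cdk1* and *Smc4* were lower in them as well. Stages are assigned from expression of the same cells, so these gaps test nothing.

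*Top2a*, which encodes the topoisomerase that untangles sister chromatids, showed the spread among single cells. It was not detected in 59 of the 704 cells in culture 1 (8.38%) and in 36 of the 564 cells in culture 2 (6.38%). Those cells had median UMIs of 13424 and 11646, against 23664 and 18963 in the cells with *Top2a*. Cyclone called 44.1% and 61.1% of them G1, against 9.46% and 9.28% of the others. Their mean *Cdc20* level was 3.06 and 2.49, above the 2.46 and 1.97 of the cells with *Top2a*, although their depth was lower. *Cenpa* was higher in them too, at 3.36 against 2.96 and 2.87 against 2.65. *Ube2c* was lower, at 2.46 against 3.12 and 2.46 against 3.30, and so was *Ccnb1*, at 2.41 against 2.62 and 1.59 against 2.05. *Cdk1*, *Mki67* and *Smc4* were lower as well, so the genes of mitosis did not move together. The part of depth in the missing *Top2a* was not tested.

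Compared with the preceding arc, 79 of 10666 genes (0.741%) were higher in the G2 arc by at least 0.25 in both cultures, and 37 (0.347%) were lower. The median difference over all genes was -0.0037 in culture 1 and -0.0015 in culture 2. The higher genes were led by centromere, spindle and ubiquitin genes of mitosis, and the lower genes by genes of DNA replication. Because position chose the cells, these counts describe how the arcs differ and test nothing. The preceding arc is also wider than the other arcs and lies further away. Its median position was 0.88π and 0.87π, against 1.08π and 1.08π in the G2 arc and 1.15π and 1.16π in the following arc. Counts against the preceding and following arcs are therefore not compared with each other.

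*Cenpa*, which encodes the histone H3 variant that marks centromeres (chr5:30666777-30674830), had the largest difference as a mean of the cultures, although that of *Ube2c* was larger in culture 2. Its mean was 1.16 in the preceding arc, 2.99 in the G2 arc and 3.48 in the following arc of culture 1, and 1.11, 2.66 and 3.10 in culture 2. *Cenpf*, a kinetochore protein, was 1.22 and 1.25 higher than in the preceding arc, and *Cenpe*, the kinesin that carries chromosomes along microtubules, was 0.88 and 0.95 higher. Of 40 centromere and kinetochore genes in the table, 8 were higher than in the preceding arc and 0 were lower, and 10 reached their maximum of the cycle in the G2 arc, among them *Spc25*, *Ndc80*, *Bub1*, *Bub1b* and *Hjurp*. The median difference of the list was 0.13 and 0.14.

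*Ube2c*, which encodes the E2 enzyme of the anaphase-promoting complex (APC/C), averaged 1.51, 3.06 and 3.29 in the 3 arcs of culture 1 and 1.59, 3.25 and 3.28 in culture 2. *Cdc20*, the APC/C activator of mitosis, averaged 1.02, 2.52 and 3.19 in culture 1 and 0.80, 2.001 and 2.71 in culture 2. *Cks2*, which binds Cdk1, was 1.16 and 1.32 higher than in the preceding arc. *Fzr1*, the activator that replaces Cdc20 late in mitosis, was 0.51 and 0.57 higher and at its maximum in the G2 arc, though 0.14 below the following arc in both cultures (-0.14 and -0.14) among cells matched for depth. These 4 were the higher genes among 21 APC/C and ubiquitin genes in the table, and the list as a whole had a median difference of 0.069 and 0.045.

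*Ccnb1*, which encodes cyclin B1, averaged 1.30, 2.60 and 2.90 in culture 1 and 0.92, 2.02 and 2.38 in culture 2. *Ccnb2* was 0.66 and 0.52 higher than in the preceding arc, and *Aurka*, the kinase of spindle poles, 0.64 and 0.74 higher. With *Cdk1*, *Ccnf*, *Cdc25c* and *Pbk*, they made 7 higher genes of the 25 Cdk1 and mitotic entry genes in the table, with 0 lower. *Ccna2*, *Plk1*, *Gtse1*, *Ccna1* and *Ccnb3* were not in the table used here.

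Spindle and cytokinesis genes gave the highest count, with 21 of 37 higher than in the preceding arc, 0 lower and a median difference of 0.33 and 0.30. *Arl6ip1* averaged 2.43, 3.59 and 4.18 in culture 1 and 2.16, 3.44 and 4.02 in culture 2. *Hmmr*, which binds spindle microtubules, was 0.80 and 0.90 higher than in the preceding arc, *Tpx2*, which activates Aurora A, 0.81 and 0.71 higher, and *Prc1*, which bundles microtubules of the midzone, 0.70 and 0.88 higher. *Aspm*, a spindle pole protein linked to brain size, was 0.64 and 0.59 higher. The list spans genes at their maximum in the G2 arc, such as *Prc1* and *Nusap1*, and genes that were higher still after it, such as *Arl6ip1*, *Tacc3* and *Knstrn*. Among cells matched for depth, *Prc1* (-0.10 and -0.05) and *Nusap1* (-0.11 and -0.11) were below the following arc as well.

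Chromosome proteins were split between early and late members. Of 19 genes of chromosome condensation in the table, 8 were higher than in the preceding arc, and 7 peaked in the G2 arc, with the condensin genes *Smc2*, *Smc4*, *Ncapd2* and *Ncapg* among these. *Dek*, a chromatin protein of replicating cells, was the lower member, at -0.26 and -0.38. *Smc2*, the partner of Smc4, differed from the preceding arc by 0.16 and 0.13, below the threshold, while it was 0.32 and 0.32 above the following arc. Among 18 cohesin and separation genes, *Rad21*, the cohesin subunit cut at anaphase, was 0.39 and 0.48 higher and *Sgo2a*, a protector of centromeric cohesin, 0.27 and 0.37 higher.

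The chromosomal passenger complex, which corrects attachments of chromosomes to the spindle, had 4 listed genes in the table. *Birc5* was 0.67 and 0.63 higher than in the preceding arc and *Cdca8* 0.75 and 0.83 higher, and they differed from the following arc by -0.0073 and -0.0015 (*Birc5*) and by -0.13 and -0.07 (*Cdca8*). *Aurkb* averaged 0.88, 1.07 and 0.64 in culture 1 and 0.92, 1.17 and 0.64 in culture 2, so it was 0.43 and 0.53 above the following arc. *Incenp* was 0.29 and 0.41 above the following arc, and both genes had their maximum in the G2 arc. Among cells matched for depth, *Aurkb* was 0.30 and 0.29 above the following arc, while *Incenp* was 0.16 and 0.06 above it and 0.31 and 0.32 above the preceding arc.

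The nuclear envelope and its transport factors contributed 3 of 21 genes. *Kpna2*, an importin, averaged 1.33, 1.92 and 1.63 in culture 1 and 1.06, 1.72 and 1.34 in culture 2, and was above both neighbours. Among cells between the UMI quartiles of the G2 arc its difference from the following arc was 0.05 and -0.15. *Lmnb1*, which encodes lamin B1, was 0.34 and 0.40 higher than in the preceding arc and *Rangap1* 0.47 and 0.45 higher. *Tmpo*, a lamina-associated protein, peaked in the G2 arc without passing the threshold against either neighbour. Outside the nucleus, *Stmn1*, which destabilises microtubules, was 0.48 and 0.39 higher, and *Tubb5*, a beta tubulin, peaked in the arc at 5.10 and 4.83. In culture 2, *Stmn1* was highest in the following arc, at 4.01 against 3.97 in the G2 arc. *Stmn1* was the only 1 of 12 tubulin and stathmin genes in the table to be called, and the median difference of that list from the preceding arc was 0.05 and -0.02.

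The genes lower than in the preceding arc came largely from replication. Of 55 replication and G1/S genes in the table, 26 were lower and 0 higher, with a median difference of -0.23 in culture 1 and -0.28 in culture 2. *Ccne1*, the cyclin that starts S phase (chr7:38097984-38107534), averaged 0.996, 0.39 and 0.13 in culture 1 and 0.98, 0.32 and 0.12 in culture 2. It was detected in 41.2% and 25.7% of G2 arc cells, against 79.0% and 59.7% of cells in the preceding arc and 14.9% and 8.20% in the last arc of the cycle. *Ccne1* was thus detected in a larger share of cells in the G2 arc than in the last arc, although depth differed between these arcs. In the following arc the shares, 15.6% and 9.35%, were close to those of the last arc.

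*Pcna*, the sliding clamp of the replication fork (chr2:132249162-132253314), averaged 2.79, 2.31 and 1.63 in culture 1 and 2.89, 2.29 and 1.62 in culture 2. The helicase subunits *Mcm3* and *Mcm6* were lower than in the preceding arc by 0.49 and 0.53 and by 0.44 and 0.69. *Chaf1b*, of the chromatin assembly factor, differed by -0.52 and -0.59, *Hells*, a chromatin remodeller, by -0.51 and -0.47, and *Ung*, a DNA repair glycosylase, by -0.45 and -0.47. Of the 37 lower genes, 10 were also above the following arc, among them *Pcna*, *Mcm6*, *Lig1*, *Rfc1* and *Tipin*, so these genes declined across all 3 arcs.

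Compared with the following arc, 24 genes (0.225%) were higher in the G2 arc and 7 (0.0656%) were lower. Apart from replication genes, the higher set held *Top2a*, which averaged 2.55, 2.73 and 2.07 in culture 1 and 2.78, 3.15 and 2.12 in culture 2. The standard deviation of *Top2a* among cells was 1.19 and 1.11 in the G2 arc and 1.38 and 1.50 in the following arc, against 0.78 and 0.90 in the preceding arc. *Fbxo5*, which encodes the APC/C inhibitor Emi1, was 0.50 and 0.51 above the following arc. *Pclaf*, a partner of PCNA, was 0.55 and 0.66 above it and *Tk1*, which makes thymidine nucleotides, 0.46 and 0.53. Among cells between the UMI quartiles of the G2 arc, 18 of the 24 higher genes passed the threshold, as did all 7 lower genes.

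The 7 lower genes were *Cdc20*, *Arl6ip1*, *Cenpa*, *Tacc3*, *Knstrn*, *Cdkn3* and *Ccnb1*, and each was also higher than in the preceding arc, so they increased across all 3 arcs. *Cdc20* was lower by 0.68 and 0.71 and *Arl6ip1* by 0.59 and 0.58. *Bub3*, a spindle checkpoint protein, joined *Smc4* and *Kpna2* as the 3 genes above both neighbours, with 0.38 and 0.38 over the preceding arc and 0.27 and 0.39 over the following arc. None of these 3 kept its call against the following arc among cells matched for depth, where *Bub3* differed from that arc by 0.13 and 0.0040.

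**Figure D3:**
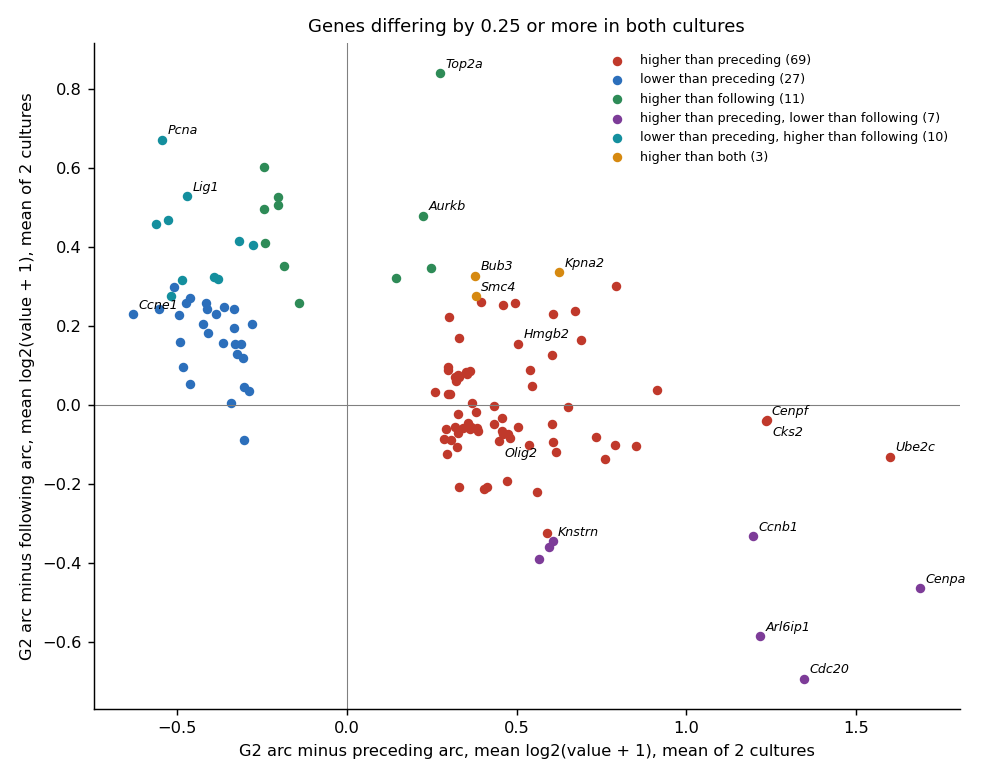
Each point is one of the genes called against a neighbouring arc, placed by its difference in mean log2(value + 1) from the preceding arc (x axis) and from the following arc (y axis), each the mean of the 2 cultures. Of the genes shown, 69 were called only as higher than the preceding arc, 7 increased across all 3 arcs (purple), 10 declined across them (teal) and 3 stood above both neighbours (amber).

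**Figure D4:**
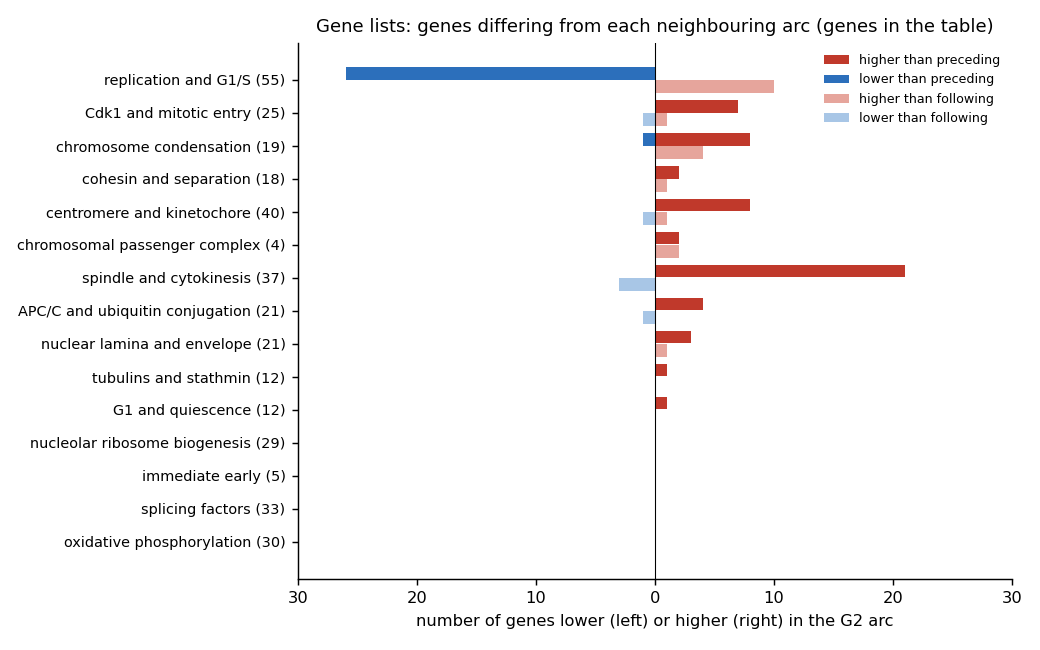
Number of genes of each list (rows, with the number of its genes in the table) that were higher (right) or lower (left) in the G2 arc than in the preceding arc (dark) and the following arc (pale). Spindle and cytokinesis genes have the most higher calls (21 of 37) and replication genes the most lower calls (26 of 55), and the last 4 lists have none.

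Change continued inside the arc. Between its earlier and later parts, split at 1.0625π, 32 genes (0.3%) were higher in the later part and 7 (0.0656%) were lower by the same threshold. *Cdc20* was 0.81 and 0.83 higher, *Cenpa* 0.73 and 0.60, *Ube2c* 0.68 and 0.65 and *Arl6ip1* 0.64 and 0.70. *Pcna* was lower in the later part by 0.34 and 0.25 and *Ccne1* by 0.31 and 0.32. Of the markers of the arc, *Cdk1* was 0.28 and 0.36 higher in the later part, which passed the threshold, and *Smc4* 0.14 and 0.13 higher. *Mki67* (0.05 and 0.09), *Hmgb2* (0.09 and 0.18) and *Top2a* (-0.01 and -0.0017) changed less, while total UMIs differed by -0.03 and 0.02 on the log2 scale. The split was chosen after earlier values of these data were known.

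The maximum of the cycle fell in the G2 arc for 62 genes (0.581%). They come from 416 genes with a range over the 16 arcs of at least 0.5 in both cultures, of which 217 had their highest arc in common between the cultures. The neighbouring arcs held 38 genes (0.875π to 1π) and 43 genes (1.125π to 1.25π), so the G2 arc held more maxima than any other of the 16. Besides *Hmgb2*, *Cdk1*, *Smc2*, *Prc1* and *Smc4*, the widest ranges belonged to *Mki67*, *Cenpe*, *Spc25*, *Tmpo*, *Nusap1*, *Ccdc34*, *Kpna2*, *Tubb5*, *Bub3* and *Aurka*. Among cells matched for depth, 8 of these 15 genes were above the following arc in both cultures. *Cenpe* (-0.01 and -0.19), *Nusap1* and *Prc1* were below it in both.

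**Figure D5:**
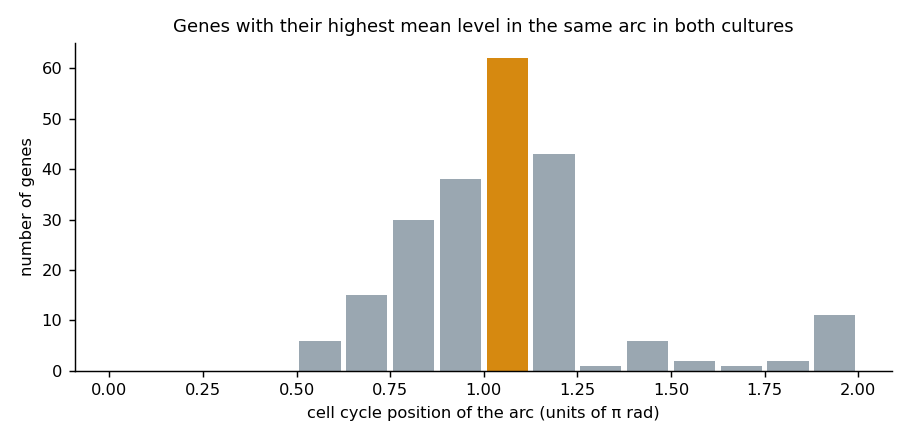
Number of genes (y axis) whose highest mean level lay in the same arc in both cultures, among genes with a range of at least 0.5, for each of the 16 arcs (x axis, position in units of π rad). The G2 arc (orange) holds 62 genes, the arc before it 38 and the arc after it 43.

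Of these 62 genes, 24 were also higher than in the preceding arc and 6 higher than in the following arc (*Aurkb*, *Bub3*, *Incenp*, *Kpna2*, *Smc2* and *Smc4*). Of those 6, *Aurkb* alone kept the call against the following arc among cells matched for depth. Among such cells, 27 of the 62 genes (43.5%) kept their maximum in the G2 arc, over the 12 arcs with enough of them. Matching kept 41.4% and 27.9% of the cells of the following arc, where UMIs fell with position, and 60.5% and 50.4% of those of the preceding arc. Whether depth, position or the smaller number of cells and arcs moved the maxima was not tested. The 62 genes also included genes that handle RNA, such as *Hnrnpab*, *Hnrnpr*, *Snrpb*, *Snrpe* and *Nudt21*, and the chromatin genes *Ctcf* and *H3f3b*. Apart from *Hnrnpab*, these were named after their values were seen. *Hnrnpab* averaged 3.25, 3.32 and 3.14 in the 3 arcs of culture 1 and 3.30, 3.35 and 3.13 in culture 2, a shallow maximum that passed the threshold against neither neighbour.

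Lists of other functions held no or few calls. Among 29 nucleolar genes, 33 splicing factors, 30 genes of oxidative phosphorylation and 5 immediate early genes in the table, 0 differed from either neighbouring arc by the threshold in both cultures. With 0.741% and 0.347% of all genes called against the preceding arc, lists of this size would hold about none at the share of all genes. Their median differences from the preceding arc were -0.0010 and -0.04 for the nucleolar genes, 0.08 and 0.05 for splicing factors and -0.09 and -0.02 for oxidative phosphorylation. The G1 and quiescence list had 1 call among 12 genes, *Cdkn2c*, an inhibitor of Cdk4 and Cdk6, which was 0.26 and 0.33 higher than in the preceding arc. *Cdkn1a*, which encodes p21, differed from the preceding arc by -0.29 in culture 1 and by -0.06 in culture 2.

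Cell type markers were examined because shares of cell types could differ between arcs. Of 7 radial glia genes in the table, 0 were called. *Fabp7* averaged 6.37 in culture 1 and 6.26 in culture 2 in the G2 arc, with differences of 0.03 and -0.11 from the preceding arc. *Vim*, an intermediate filament of progenitors, differed by 0.10 in culture 1 and by -0.09 in culture 2, so the cultures differed in sign. *Sox2* and *Hes5* were not in the table used here.

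*Olig2*, a transcription factor of ventral and oligodendrocyte progenitors (chr16:91225457-91228677), was the cell type marker that passed the threshold. It averaged 2.13, 2.54 and 2.70 in the 3 arcs of culture 1 and 2.08, 2.56 and 2.59 in culture 2, and was 0.31 and 0.27 higher in the later part of the G2 arc than in the earlier part. Its level in the last arc of the cycle was 2.58 and 2.35, so the preceding arc was the lower one and the G2 arc was close to or above that level. Among cells matched for depth it was 0.42 and 0.50 higher than in the preceding arc. The other 4 oligodendrocyte progenitor genes in the table were not called, and 3 of them differed in sign between the cultures. *Pdgfra* differed from the preceding arc by 0.07 and -0.01, with detection in 15.8% and 1.60% of G2 arc cells against 9.38% and 2.38% before. *Lhfpl3* differed by 0.08 and -0.06 and *Sox10* by 0.01 and -0.01, and *Cspg4* by -0.01 and -0.04. Among cells matched for depth, *Lhfpl3* differed by 0.21 and 0.06 and *Pdgfra* by 0.10 and 0.0033.

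Of 10 neuronal and 6 astrocyte genes listed, 2 and 3 were in the table, and 0 of these were called. *Dcx* averaged 0.09 and 0.03 and *Gad1* 0.02 and 0.01 in the G2 arc, and *S100b* averaged 0.10 and 0.10. *Slc1a2* averaged 0.39 and 0.35 and was detected in 40.1% and 26.4% of G2 arc cells, and *Aldh1l1* averaged 0.47 and 0.38 and was detected in 40.5% and 27.1%. In the last arc of the cycle the shares were 42.6% and 23.6% for *Slc1a2* and 47.1% and 30.3% for *Aldh1l1*. *Pax6*, a transcription factor of cortical radial glia, was low as well, at 0.34 and 0.44, yet its highest mean of the 16 arcs lay in the G2 arc in both cultures, with 0.11 and 0.12 over the preceding arc. Among cells matched for depth, *Pax6* differed from the following arc by -0.02 in culture 1 and 0.22 in culture 2. The listed genes of microglia, endothelium, pericytes and erythroid cells were not in the table used here.

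Shared barcodes and very deep cells were few. The cultures shared 48 cell barcodes, 11 cells of the G2 arc carried one of them, and for 0 of them were both cells in the arc. Cells with over 2 times the median UMIs of the arc, which can include doublets, made up 25 of 704 (3.55%) in culture 1 and 6 of 564 (1.06%) in culture 2. Intervals on shares cover counting error only.

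When levels were counted per cell and not per unit of depth, which multiplies each value by the relative UMIs of its cell, the picture against the following arc widened. Counts then were 98 higher and 35 lower against the preceding arc, and 130 higher and 2 lower against the following arc. Of all genes, 8614 in culture 1 and 8323 in culture 2 were above the following arc on this scale. The lower UMIs of the following arc enter each of those differences.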

How the data were processed

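Single-cell RNA-seq (Chromium 3′) of 2 wild-type neurosphere cultures was used. The submitters' processing notes name alevin, Salmon 1.3.0, Seurat 3.2.2 and GRCm38, and by the methods the authors used spliced counts and removed cells with outlying UMIs, genes, mitochondrial share or doublet score. No doublet caller or further cell filter was run here. The labels name kit v2, where the methods give another version. The expression table was deposited by the authors as a signal on a linear scale, normalized for the depth of each cell (sums per cell of 11187 to 12881 over 10666 genes). The authors deposited total UMIs as estimated counts summed over a cell, and the position and stages of each cell are other values deposited by the authors. Depths ranged from 5957 to 103199 UMIs per cell. Counts were not recovered, since 8.97% and 8.96% of the values times depth lay within 0.02 of a whole number, so no count model and no thinning was used. A gene's smallest step differed between cultures (median absolute log2 ratio 0.18).

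Values were taken as log2(value + 1) and averaged over the cells of each arc within each culture. A call needed a difference of 0.25 in both cultures, and a maximum needed the highest of 16 arcs in both and a range of 0.5. The code for the call against the preceding arc and for the maximum was run on cells permuted within each culture. Known shifts were added there to genes detected in most cells. Permuted cells have no course of the cycle, so that run checks the code and not the calls made here. It did not cover calls against the following arc or within the G2 arc. Named genes were the 10 with the largest smaller-of-cultures difference per call list, 15 for the maxima, all markers, up to 4 per gene list and those of the printed promoters. Genes named for the split of the arc, and those named without a value, were chosen after their values were seen. The members and the 24 lists were chosen with earlier results of these data known. Symbols and GENCODE vM21 coordinates (GRCm38) were found for 10662 genes, and promoters came from RefSeq (GRCm38.p6). Alternatives covered the pseudocount, filter, summary, scaling, depth, culture, arc and threshold. Python 3.11.15, numpy 2.4.6, pandas 2.3.3, scipy 1.17.1 and matplotlib 3.10.9 were used.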

Additional observations from a re-analysis of the deposited data

How the results depend on the processing

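The counts of genes rest on the threshold and the scale. In the order higher and lower than the preceding arc, higher and lower than the following arc, and higher and lower in the later part of the G2 arc (79, 37, 24, 7, 32 and 7), they were 273, 276, 234, 66, 117 and 71 with a threshold of 0.1 and 28, 2, 6, 2, 7 and 0 with 0.5. A pseudocount of 0.1 gave 245, 221, 318, 37, 112 and 68, and log2 of the mean value plus 0.1 gave 245, 369, 210, 91, 165 and 109. With each culture alone they were 101 to 103, 61 to 63, 41 to 52, 11 to 16, 36 to 52 and 14 to 16. The genes with their maximum in the G2 arc (62) numbered 255 with a pseudocount of 0.1, 122 with log2 of the mean, 98 to 119 in single cultures, and 127 and 20 with a range of 0.25 and 1. Cells rescaled to the same sum and a filter on a mean value of 0.1 changed no count. Rescaling could change little, since the sums per cell already had a coefficient of variation of 1.02%. In cells matched for depth, 14 genes were lower than in the following arc, 12 were lower in the later part, and 37 had their maximum in the G2 arc over the 12 arcs with at least 20 such cells, of which 27 were among the 62. The earlier part of the arc alone gave 45, 22, 49 and 28 against the neighbours and the later part gave 2 genes lower than the following arc. Per cell, an alternative chosen after seeing the data like those on the split of the arc, 130 genes were higher and 2 lower than the following arc. The cause was not tested, except that lower thresholds and single cultures admit more genes by construction. Total UMIs against the preceding arc, 0.06 as the mean of the cultures, ranged from -0.0084 to 0.12 in single cultures, and those of the later against the earlier part, -0.0027, from -0.029 to 0.024. Means in place of medians gave 0.22 against the following arc in place of 0.32. Of 847 values of 77 called differences of named genes under the alternatives, 846 kept the direction of the mean of the cultures, and *Kpna2* against the following arc was -0.053 in cells matched for depth. Part of that tally was fixed in advance. A call needed the same sign in both cultures, so single cultures could not turn it. The filter left the value of each gene unchanged, and rescaling left it nearly unchanged. By culture at matched depth, all 51 named calls against the preceding arc were kept, while 14 of the 19 named genes higher than the following arc were, with *Smc4* and *Kpna2* turning sign in culture 2. Arcs were compared within each culture, so the differences are paired by construction.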
